A study of Mus musculus with 2 samples.

Results

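The genes described here are 6 of the 32285 genes in the count tables: Penk, Pcsk1, Areg, Il1rl1, Rln3 and Tff1. They encode an opioid peptide precursor, the protease that cuts such precursors, a growth factor of tissue repair, the interleukin-33 receptor, a relaxin family peptide and a trefoil peptide. They were chosen from the same tumour T cells because their transcripts differed between the treated and the vehicle library. Their levels in those libraries are therefore a description, with no test and nothing inferred from them.

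The study profiled T cells from EMT6 tumours, a mouse mammary carcinoma line grown under the skin of BALB/c mice aged 4 to 6 weeks. Mice were randomised at a tumour volume of 80 to 150 mm3 and received either mSTAR1302, given into the peritoneum in 2 cycles at 1 dose per week, or vehicle. mSTAR1302 is a mouse surrogate antibody that binds T cell receptors of certain beta chain families and carries interleukin-2. Both groups carried the same tumour. Collagenase and DNase were used to dissociate the tumours of both, magnetic beads to enrich CD4+ and CD8+ cells, and the isolated cells were kept in RPMI medium with serum. Each group had 1 droplet single-cell library, and no source used here gives how many mice it came from. No test between the groups could be made, and every interval below covers counting error of unique molecular identifiers (UMIs) or cells only.

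Proenkephalin, the product of Penk, is a precursor protein that must be cut at paired basic residues before it releases enkephalins, small peptides that act on delta and mu opioid receptors. Prohormone convertase 1, the product of Pcsk1, makes such cuts in neuroendocrine cells, and carboxypeptidase E then trims the ends. Areg encodes amphiregulin, a membrane-bound ligand of the epidermal growth factor receptor that is shed by metalloproteases. Il1rl1 encodes ST2, the receptor chain that binds interleukin-33, an alarmin released from damaged tissue. Regulatory T cells of muscle, lung, fat and tumours are known for ST2 and amphiregulin, and Penk transcripts have been described in regulatory T cells of mouse skin. Rln3 encodes relaxin-3, a peptide best known from the brain, and Tff1 encodes a trefoil peptide of the gastric mucosa.

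The deposited tables give the number of UMIs for each gene in each barcode. A barcode was taken as a cell with at least 1000 UMIs, at least 500 genes and at most 10% mitochondrial UMIs, which kept 9155 mSTAR1302 cells and 7615 vehicle cells. Their median depth was 6260 UMIs in mSTAR1302 and 8448 UMIs in vehicle. T cells were cells with at least 2 UMIs of Cd3d, Cd3e and Cd3g together. The CD8 gate needed a Cd8a or Cd8b1 UMI and no Cd4 UMI, and the CD4 gates needed a Cd4 UMI and no Cd8a or Cd8b1 UMI, without or with a UMI of Foxp3, the defining transcription factor of regulatory T cells. The CD8 gate held 6290 mSTAR1302 cells and 2460 vehicle cells. The CD4 gate without Foxp3 held 791 mSTAR1302 cells and 622 vehicle cells, and the CD4 gate with Foxp3 held 146 mSTAR1302 cells and 1365 vehicle cells. At the Cd3 limit, 239 mSTAR1302 cells and 279 vehicle cells had exactly 2 Cd3 UMIs, and 245 mSTAR1302 cells and 414 vehicle cells had 1. In the CD8 gate the 6 T cell markers summed to 5563 CPM (UMIs of a gene per 1000000 UMIs of the gate) in mSTAR1302 and 5929 CPM in vehicle, and in the CD4 gate with Foxp3 the 4 regulatory T cell markers summed to 3647 CPM in mSTAR1302 and 4216 CPM in vehicle, which the gating on Cd3 and Foxp3 sets in part. 17 kept cells shared a barcode between the libraries.

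Neither the CD8 gate nor the CD4 gate without Foxp3 was free of regulatory T cell transcripts. Of CD8 cells, 3.07% (95% exact binomial interval 2.66 to 3.52%) held a Foxp3 UMI in mSTAR1302, against 16.3% (14.9 to 17.9%) in vehicle. The 4 regulatory T cell markers, Foxp3 at 0 by the rule among them, summed to 563 CPM in mSTAR1302 and 1424 CPM in vehicle in the CD4 gate without Foxp3. Markers of macrophages also differed in the CD8 gate, with all 6 markers present and a sum of 56.2 CPM in mSTAR1302, against 686 CPM in vehicle. The sums were 72.4 CPM in mSTAR1302 and 834 CPM in vehicle in the CD4 gate without Foxp3, and 7.22 CPM in mSTAR1302, with 4 of 6 markers at 0, and 242 CPM in vehicle in the CD4 gate with Foxp3. The 5 dendritic cell markers of the CD8 gate summed to 98.5 CPM in mSTAR1302 and 428 CPM in vehicle. Droplets with 20 to 200 UMIs, which mostly carry free RNA, also held transcripts of the 6 genes, save Pcsk1 in mSTAR1302. Penk stood at 21.3 CPM in those of mSTAR1302 and 232 CPM in those of vehicle. Areg stood at 53.0 CPM in those of mSTAR1302, close to the CD8 gate (52.9 CPM). In those of vehicle Areg stood at 299 CPM, close to all kept cells (298 CPM) and above the CD8 gate (252 CPM). The part of these cells and droplets in the levels of the gates was not tested. Values without the Foxp3 cells are given beside each gene below. Those without cells with macrophage markers are given for the CD8 gate in the last section.

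The promoters are shown here because 2 of the 4 genes with a promoter sequence at hand, Pcsk1 and Areg, hold the same 8 bases close to their start. Penk and Tff1 had no promoter sequence at hand and were not searched. The sequences are those of RefSeq on GRCm38.p6, 200 bases each, from 240 to 41 bases before the annotated start, read 5′ to 3′ on the gene's strand. Capitals mark TGACGTCA, the palindromic cyclic AMP response element, and its 5-base core TGACG, searched on both strands. The Pcsk1 window is chr13:75089617-75089816 on the plus strand, and the Areg window is chr5:91139359-91139558 on the plus strand.
Pcsk1: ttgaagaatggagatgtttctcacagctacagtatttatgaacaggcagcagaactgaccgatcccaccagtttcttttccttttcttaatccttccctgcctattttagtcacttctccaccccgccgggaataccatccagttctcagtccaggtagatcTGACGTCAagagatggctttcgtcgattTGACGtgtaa
Areg: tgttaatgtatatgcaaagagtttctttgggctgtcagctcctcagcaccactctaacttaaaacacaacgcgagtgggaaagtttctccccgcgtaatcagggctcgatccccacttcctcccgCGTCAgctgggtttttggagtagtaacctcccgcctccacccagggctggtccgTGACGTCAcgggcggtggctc

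The palindrome began 78 bases before the start of Pcsk1 and 61 bases before the start of Areg. A further core that overlaps no palindrome began 50 bases before the Pcsk1 start, and another, on the opposite strand, 115 bases before the Areg start. The RefSeq table held 5 promoters of 4 of the genes, Pcsk1, Areg, Il1rl1 and Rln3. Of these, 1 of the 2 Il1rl1 promoters held a core, 34 bases before its start, and the Rln3 promoter held neither motif. Over 32851 promoters of 27025 genes, the 250 bases before the start held the palindrome in 508 (1.55%) and a core on either strand, alone or within the palindrome, in 5836 (17.8%). Each match is a string of letters and says nothing on whether a factor binds there.

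All 6 genes stood lower in mSTAR1302 than in vehicle in the CD8 gate and in the CD4 gate without Foxp3. By fold of CPM, the differences were smaller in the CD4 gate with Foxp3 for 5 of the 6, and Tff1, the exception, rests there on few UMIs. On the log2(CPM + 1) scale Pcsk1, at -2.66 in the CD8 gate and -2.73 in the CD4 gate with Foxp3, was an exception too. At least 2-fold lower were 6 of 6 genes in the CD8 gate, 5 of 6 in the CD4 gate without Foxp3 and 3 of 6 (Pcsk1, Rln3 and Tff1) in the CD4 gate with Foxp3. Beside these counts, of all genes that reached 20 CPM in one library or the other, 4.73% were at least 2-fold lower in the CD8 gate, 5.35% in the CD4 gate without Foxp3 and 1.95% in the CD4 gate with Foxp3. At least 2-fold higher were 1.04%, 0.906% and 0.576% of genes in the same 3 gates, and 0 of the 6. Without the 20 CPM floor, which Pcsk1 and Tff1 miss in some gates, 24.3%, 27.4% and 33.5% of genes were at least 2-fold lower in those gates. Pcsk1 and Tff1 stayed under 20 CPM in the CD8 gate, so 4 of 4 genes past that floor were 2-fold lower there. It was 4 of 5 in the CD4 gate without Foxp3, where Tff1 stayed under it, and 3 of 6 in the CD4 gate with Foxp3. Since the genes were chosen for this contrast, no weight is put on these counts.

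**Figure D1:**
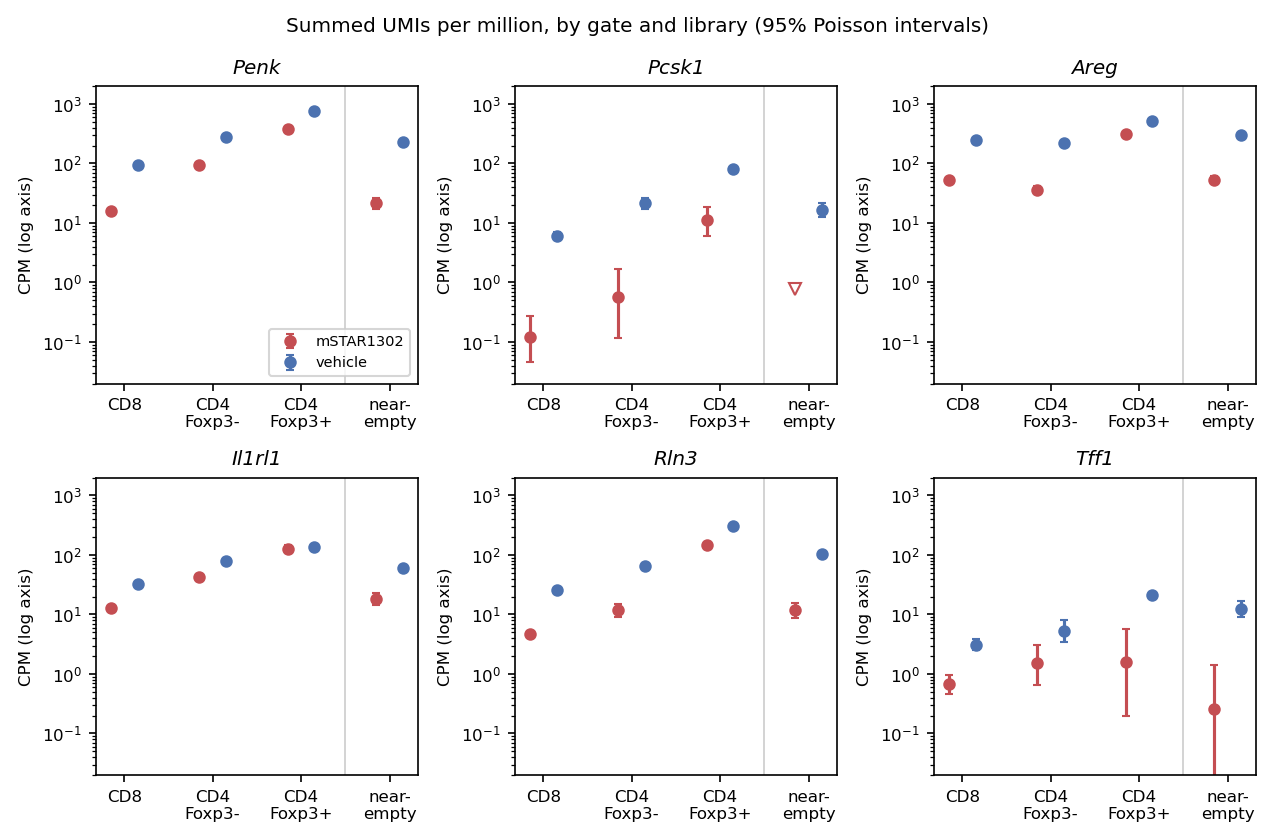
Level of each gene in CPM (log axis) in the 3 gates and in near-empty droplets, mSTAR1302 left of vehicle, with 95% exact Poisson bars for counting error. The open triangle marks a count of 0, drawn at the level that 3 UMIs would give. Penk, Pcsk1, Areg, Il1rl1 and Rln3 were highest in the CD4 gate with Foxp3 in both libraries.

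Penk was a gene of the CD4 gate with Foxp3 in both libraries. It stood at 386 CPM (481 UMIs in 146 cells) in mSTAR1302 and at 755 CPM (10899 UMIs in 1365 cells) in vehicle in that gate, a level 1.96 times lower (1.79 to 2.15) in mSTAR1302. It stood in the CD4 gate without Foxp3 at 94.4 CPM in mSTAR1302 and 273 CPM in vehicle, 2.89 times lower. Its CD8 gate level was 15.8 CPM (771 UMIs) in mSTAR1302 and 95.7 CPM (2770 UMIs) in vehicle, 6.06 times lower (5.59 to 6.57), a difference of -2.53 on the log2(CPM + 1) scale. The median difference over all genes of at least 20 CPM in the CD8 gate was -0.14 on that scale. Within a library, the Penk level in the CD4 gate with Foxp3 was 24.4 times that in the CD8 gate in mSTAR1302 (21.8 to 27.4) and 7.89 times in vehicle (7.57 to 8.23).

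The Penk level of the vehicle CD8 gate lay below that of near-empty vehicle droplets, so it cannot be read as transcription by CD8 cells from its size alone. After every cell was thinned to 3000 UMIs, a Penk UMI was held by 1.23% of CD8 cells in mSTAR1302 and 8.59% in vehicle. The thinning left out 680 CD8 cells of mSTAR1302 and 120 of vehicle, whose gate medians were 6598 and 9866 UMIs. Unthinned, the shares were 2.07% in mSTAR1302 and 16.4% in vehicle. Cells with macrophage markers and no Cd3 UMI, which should lack the gene, held a thinned Penk UMI in 0 of 23 cells in mSTAR1302 and 1 of 65 (1.54%) in vehicle, at median depths of 8872 and 19331 UMIs. With 0 of 23, a share of up to 13.0% is allowed. Unthinned, 0 of 27 of these cells in mSTAR1302 and 7 of 78 (8.97%) in vehicle held Penk, each of the 7 with 1 UMI, and 9.07% of vehicle CD8 cells held exactly 1 Penk UMI. That CD8 share lies inside the wide interval of the macrophage-marker cells (3.68 to 17.6%), which were deeper. Where the single Penk UMIs of vehicle CD8 cells come from was not tested, and they are not read as transcription by those cells.

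Penk transcripts were concentrated in few cells. At least 10 Penk UMIs were held by 28 of 6290 CD8 cells (0.445%) in mSTAR1302 and 70 of 2460 (2.85%) in vehicle. Those cells carried 75.7% of the gate's Penk UMIs in mSTAR1302 and 74.8% in vehicle. The richest CD8 cell held 56 Penk UMIs in mSTAR1302 and 167 in vehicle. Of the CD4 gate with Foxp3, 14 cells (9.59%) in mSTAR1302 and 239 (17.5%) in vehicle held at least 10, and they carried 86.3% of the gate's Penk UMIs in mSTAR1302 and 92.2% in vehicle. The libraries thus differed in how many cells were rich in Penk. UMIs of one cell are not independent, and the counting intervals do not include that.

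Without the cells that held a Foxp3 UMI, Penk in the CD8 gate stood at 12.4 CPM in mSTAR1302 and 57.9 CPM in vehicle, 4.68 times lower. In the Foxp3 cells of the CD8 gate it stood at 99.1 CPM in mSTAR1302 and 255 CPM in vehicle. Penk thus stood lower in mSTAR1302 on both sides of that split. Without the Foxp3 cells, both levels lay below those of near-empty droplets, at 21.3 CPM in mSTAR1302 and 232 CPM in vehicle. A cell without a Foxp3 UMI can still be a regulatory T cell. The part of such cells and of free RNA in the difference was not tested.

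**Figure D2:**
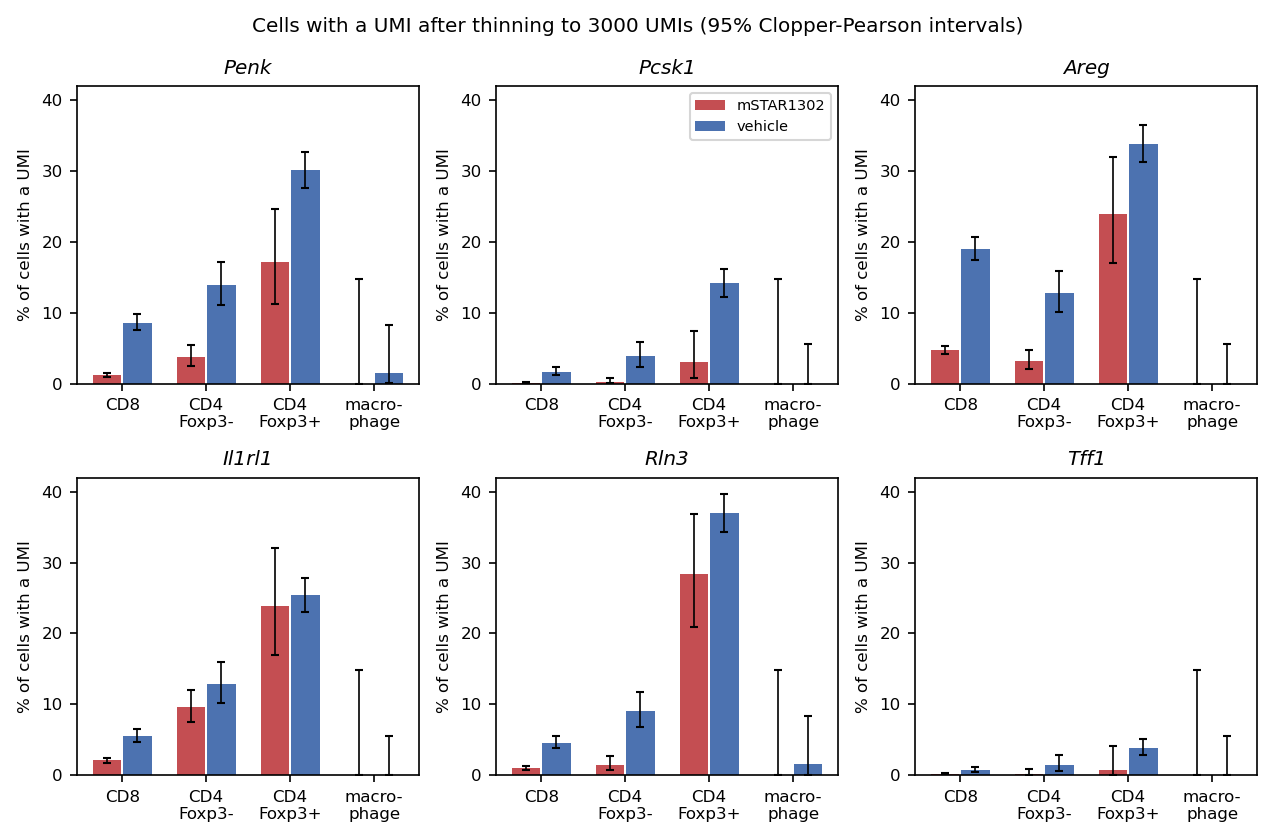
Share of cells (percent) with at least 1 UMI of each gene after thinning to 3000 UMIs, for the 3 gates and for cells with macrophage markers and no Cd3 UMI, mSTAR1302 left of vehicle, with 95% exact binomial bars. For Penk, 17.2% of mSTAR1302 cells and 30.1% of vehicle cells of the CD4 gate with Foxp3 were positive.

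Pcsk1 transcripts were scarce in mSTAR1302. The CD8 gate held 6 UMIs (0.123 CPM) in mSTAR1302 and 177 UMIs (6.12 CPM) in vehicle, 49.7 times lower with a wide interval of 22.4 to 137. The CD4 gate without Foxp3 held 3 UMIs (0.574 CPM) in mSTAR1302 and 93 UMIs (21.5 CPM) in vehicle, 37.5 times lower (12.4 to 185). The CD4 gate with Foxp3 held 14 UMIs (11.2 CPM) in mSTAR1302 and 1159 UMIs (80.3 CPM) in vehicle, 7.15 times lower (4.25 to 13.1). The intervals are wide because the mSTAR1302 counts are small. The mSTAR1302 near-empty droplets held 0 Pcsk1 UMIs, which allows up to 0.761 CPM, and the vehicle ones stood at 16.4 CPM, above the vehicle CD8 gate. No macrophage-marker cell of either library held a Pcsk1 UMI, 0 of 27 in mSTAR1302 and 0 of 78 in vehicle.

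Vehicle CD8 cells with Pcsk1 were mostly cells with Foxp3. Of 76 CD8 cells with a Pcsk1 UMI, 50 (65.8%) held a Foxp3 UMI, against 14.8% of CD8 cells without Pcsk1. Pcsk1 stood at 25.4 CPM in the vehicle CD8 cells with Foxp3 and at 1.54 CPM in those without. Without the Foxp3 cells, the CD8 gate stood at 0.107 CPM in mSTAR1302, against 1.54 CPM in vehicle, 14.4 times lower in place of 49.7.

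**Figure D3:**
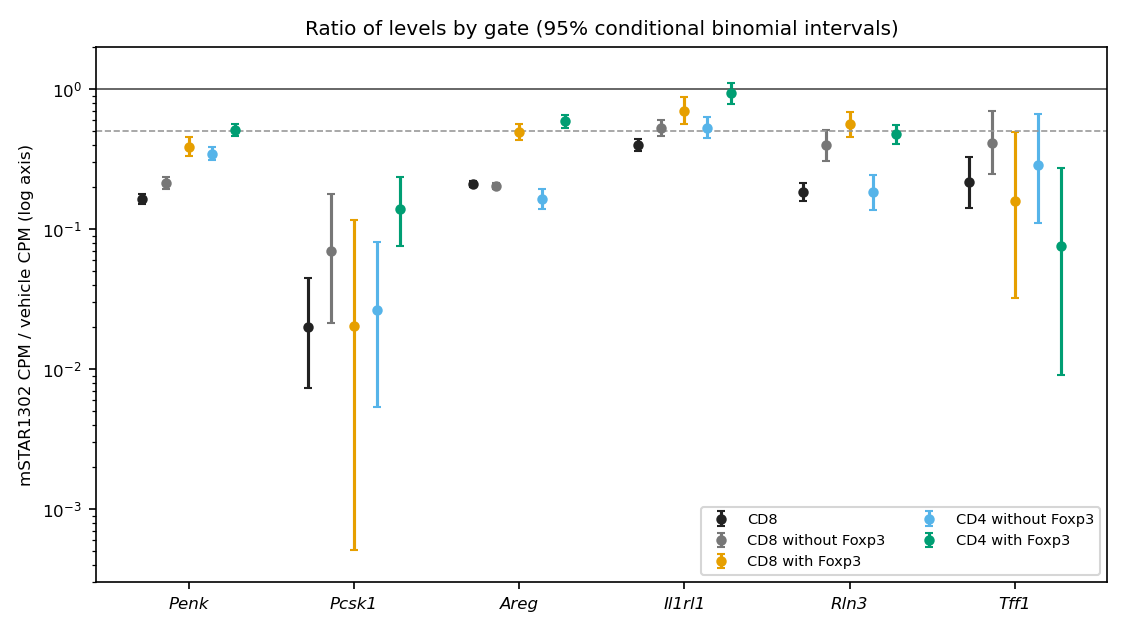
CPM in mSTAR1302 divided by CPM in vehicle (log axis) for each gene in the CD8 gate, its cells without and with a Foxp3 UMI, and the 2 CD4 gates, with 95% exact intervals for counting error. The solid line marks 1 and the dashed line 0.5. Il1rl1 in the CD4 gate with Foxp3 is the point nearest 1.

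Whether Penk and its protease share cells was asked in the vehicle library, where both genes had enough positive cells. At 3000 UMIs per cell, 16 of 201 Penk-positive CD8 cells (7.96%, 4.62 to 12.6%) also held a Pcsk1 UMI, against 23 of 2139 Penk-negative CD8 cells (1.08%, 0.683 to 1.61%). The odds ratio was 7.94 (exact interval 3.85 to 16.0). Among CD4 cells with Foxp3, 86 of 388 Penk-positive cells (22.2%, 18.1 to 26.6%) and 96 of 901 Penk-negative cells (10.7%) held Pcsk1, an odds ratio of 2.39 (1.71 to 3.33). Among CD4 cells without Foxp3 it was 11 of 76 cells (14.5%) against 10 of 469 (2.13%), an odds ratio of 7.72. Cells with Penk thus held Pcsk1 more often than cells without it in all 3 gates of this library. Most Penk cells showed no Pcsk1 UMI in any of the 3 gates. Of the cells with Pcsk1, 41.0% held Penk in the CD8 gate, 52.4% in the CD4 gate without Foxp3 and 47.3% in the CD4 gate with Foxp3. A transcript at low copy is often missed at 3000 UMIs, and how many cells hold both was not measured beyond that. The cells of a gate share a library and free RNA, whose part in the overlap was not tested. Without cells above 20000 UMIs, the odds ratio of the CD8 gate was 8.30. The vehicle median of that gate was 9866 UMIs, so this cut can leave many doublets in. The part of doublets in the overlap was not tested.

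The Foxp3 cells entered the CD8 overlap. Without them, 4 of 130 Penk-positive CD8 cells (3.08%) and 9 of 1829 Penk-negative ones (0.492%) held Pcsk1, an odds ratio of 6.41 on 4 cells (1.42 to 23.3). The cells are from 1 library and are not replicates, so the interval describes that library.

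The share of cells with Pcsk1 differed with the amount of Penk. In the vehicle CD4 gate with Foxp3 at full depth, 15.3% of cells with 0 Penk UMIs, 16.5% with 1, 28.4% with 2 to 9, 36.6% with 10 to 49 and 46.4% with 50 or more held a Pcsk1 UMI. Depth moved with it, since the median UMIs of those classes were 7724, 7546, 8432, 10146 and 15646. In the vehicle CD4 gate without Foxp3 the shares were 3.43%, 5.00%, 22.2%, 12.5% and 57.1%, the last of them over 7 cells. Across the vehicle CD8 gate the shares were 2.09%, 3.14%, 13.5%, 14.8% and 22.2%, the last of them over 9 cells. A Foxp3 UMI was held by 13.8%, 18.4%, 38.7%, 47.5% and 66.7% of the same CD8 classes, so Foxp3 and Pcsk1 were both more frequent in CD8 cells with more Penk.

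**Figure D4:**
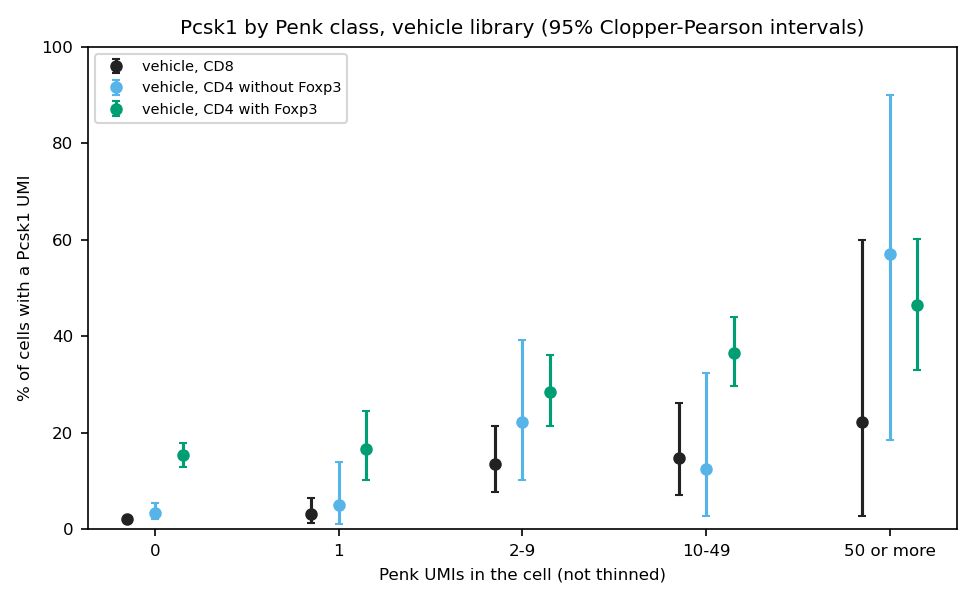
Share of vehicle cells with a Pcsk1 UMI (percent, full depth) by the number of Penk UMIs in the cell, for the 3 gates. Bars are 95% exact binomial intervals. In the CD8 gate and the CD4 gate with Foxp3, shares were higher in the classes with more Penk, up to 22.2% and 46.4% at 50 or more UMIs. The CD4 gate without Foxp3 showed no steady rise, with 22.2% at 2 to 9, 12.5% at 10 to 49 and 57.1% at 50 or more.

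In mSTAR1302 too few Pcsk1 cells were found to ask the question by gate. At full depth, 0 of 130 Penk-positive CD8 cells, which allows a share of up to 2.31%, and 6 of 6160 Penk-negative CD8 cells held Pcsk1. Among CD4 cells with Foxp3 it was 2 of 30 Penk-positive and 5 of 116 Penk-negative cells. Over all T cells of the library, 6 of 295 Penk-positive cells (2.03%) and 19 of 8423 Penk-negative cells (0.226%) held it, an odds ratio of 9.18. This pools gates of different levels: 22.8% of T cells with 1 Penk UMI and 60.0% of those with 50 or more held Foxp3, against 6.24% of those with 0, so the pooled value does not show an overlap within a gate.

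The other genes of the opioid and processing lists were fewer and mostly low. Of 9 opioid genes, 2 passed 20 CPM in the CD8 gate, Penk and Ogfr, which encodes the opioid growth factor receptor. Ogfr stood at 52.2 CPM in mSTAR1302 and 50.2 CPM in vehicle in that gate. The delta opioid receptor gene Oprd1 was listed at 0 CPM in both libraries in all 3 gates. The mu opioid receptor gene Oprm1 stayed under the floor in the CD8 gate. It stood there at 1.74 CPM (85 UMIs) in mSTAR1302 and 0.276 CPM (8 UMIs) in vehicle, 6.30 times higher (3.06 to 15.1). Without the floor, 10.5% of genes were at least 2-fold higher in that gate. Of 17 prohormone processing genes, 5 passed the floor in the CD8 gate, and 2 were at least 2-fold lower. These were Ctsl, a lysosomal protease that macrophages also express, at 23.9 CPM in mSTAR1302 and 140 CPM in vehicle, and Scg5, a chaperone of a related convertase, at 14.3 CPM in mSTAR1302 and 29.4 CPM in vehicle. Furin, the convertase that most cells use, was not 2-fold different, at 151 CPM in mSTAR1302 and 110 CPM in vehicle. Cpe, the carboxypeptidase that trims convertase products, stood at 0.758 CPM in mSTAR1302 and 3.18 CPM in vehicle. Of 5 that passed in the CD4 gate with Foxp3, 3 were at least 2-fold lower, namely Pcsk1, Ctsl and Cpd, another carboxypeptidase, which stood at 47.3 CPM in mSTAR1302 and 110 CPM in vehicle. Of 6 peptidases that degrade enkephalins, 3 passed the floor, and 0 of those 3 were 2-fold different in any of the 3 gates. Under the floor, Anpep stood at 0.205 CPM (10 UMIs) in mSTAR1302 and 1.69 CPM (49 UMIs) in vehicle in the CD8 gate. That was 8.26 times lower (4.13 to 18.3). Mme held 2 UMIs in mSTAR1302 and 1 in vehicle there, and Ace 0 in both. Without the floor, 24.3% of genes were at least 2-fold lower in the CD8 gate.

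Areg gave the most UMIs of the 6 genes in the CD8 gate, and it was lower in mSTAR1302 in all 3 gates. The CD8 gate held it at 52.9 CPM (2580 UMIs) in mSTAR1302 and 252 CPM (7298 UMIs) in vehicle, 4.77 times lower (4.56 to 4.99), or -2.23 on the log2 scale. The CD4 gate without Foxp3 held it at 35.6 CPM in mSTAR1302 and 217 CPM in vehicle, 6.09 times lower. The CD4 gate with Foxp3 held it at 309 CPM (385 UMIs) in mSTAR1302 and 526 CPM (7586 UMIs) in vehicle, 1.70 times lower. The level in the CD4 gate with Foxp3 was 5.84 times that in the CD8 gate in mSTAR1302 and 2.09 times in vehicle, so the gates stood closer together in vehicle.

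Leaving out the Foxp3 cells moved Areg in the CD8 gate little. Without them it stood at 48.7 CPM in mSTAR1302 and 238 CPM in vehicle, 4.89 times lower. At 3000 UMIs, 4.74% of CD8 cells in mSTAR1302 and 19.0% in vehicle held an Areg UMI, against 0 of 23 macrophage-marker cells in mSTAR1302 and 0 of 65 in vehicle. Unthinned, 2 of 27 macrophage-marker cells in mSTAR1302 (7.41%) and 4 of 78 in vehicle (5.13%) held Areg, each with 1 UMI. The unthinned CD8 share was 7.17% in mSTAR1302, inside the interval of the macrophage-marker cells (0.910 to 24.3%). In vehicle it was 29.1%, above theirs (1.41 to 12.6%). Cells with at least 10 Areg UMIs were 65 of the CD8 gate (1.03%) in mSTAR1302 and 199 (8.09%) in vehicle, and they carried 61.0% of its Areg UMIs in mSTAR1302 and 79.6% in vehicle. Among CD4 cells with Foxp3 such cells were 12 (8.22%) in mSTAR1302 and 181 (13.3%) in vehicle.

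Of 16 genes of the epidermal growth factor family, its receptors and sheddases, 3 passed 20 CPM in every gate. Beside Areg these were Adam17 and Adam10, sheddases of the membrane-bound ligands. Adam17 stood at 62.5 CPM in mSTAR1302 and 65.2 CPM in vehicle in the CD8 gate, and Adam10 at 47.7 CPM in mSTAR1302 and 68.2 CPM in vehicle. Hbegf, another ligand of the same receptor, stayed under the floor at 8.07 CPM in mSTAR1302 and 19.7 CPM in vehicle. The receptor gene Egfr stood at 0.143 CPM in mSTAR1302 and 0.726 CPM in vehicle.

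Il1rl1 differed least between the libraries of the 6 genes, by fold, in each gate. The CD8 gate held it at 12.7 CPM (622 UMIs) in mSTAR1302 and 31.9 CPM (922 UMIs) in vehicle, 2.50 times lower. Without the Foxp3 cells it was 11.0 CPM in mSTAR1302 and 20.9 CPM in vehicle, 1.90 times lower and no longer past 2-fold. The CD4 gate without Foxp3 held it at 42.3 CPM in mSTAR1302 and 79.9 CPM in vehicle, 1.89 times lower. The CD4 gate with Foxp3 held it at 126 CPM in mSTAR1302 and 135 CPM in vehicle, a ratio of 0.935 with an interval of 0.789 to 1.10. The levels of that gate could not be told apart within counting error, and 23.9% of its cells in mSTAR1302 and 25.4% in vehicle held an Il1rl1 UMI at 3000 UMIs. Of CD8 cells, 2.05% in mSTAR1302 and 5.56% in vehicle did, against 0 of 23 macrophage-marker cells in mSTAR1302 and 0 of 65 in vehicle. Unthinned, 0 of 27 macrophage-marker cells in mSTAR1302 and 2 of 78 in vehicle held Il1rl1. Its level in near-empty droplets was 18.3 CPM in mSTAR1302 and 60.0 CPM in vehicle, above the CD8 gate in both libraries.

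The other genes of the interleukin-33 pathway differed little. Of 10 listed, 8 passed the floor in the CD4 gate with Foxp3 and 0 were 2-fold different. Il1rap, the shared second chain of the receptor, stood at 4.81 CPM in mSTAR1302 and 5.06 CPM in vehicle there. Il18r1, which starts 137 bases beyond the end of Il1rl1 on the same strand, stood at 161 CPM in mSTAR1302 and 218 CPM in vehicle in the CD8 gate. Among CD4 cells with Foxp3 Il18r1 stood at 93.9 CPM in mSTAR1302 and 80.1 CPM in vehicle. Reads that run past the annotated end of Il1rl1 cannot be told apart from it in gene totals.

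Of 204 vehicle CD8 cells with a Rln3 UMI, 115 (56.4%) held a Foxp3 UMI, against 12.7% of CD8 cells without Rln3. Rln3 stood at 145 CPM (181 UMIs) in mSTAR1302 and 305 CPM (4397 UMIs) in vehicle in the CD4 gate with Foxp3, 2.10 times lower. The log2 difference of that gate was -1.06, and -0.61 after thinning to 3000 UMIs, where it no longer passed 2-fold. For CD4 cells without Foxp3 the level was 11.7 CPM in mSTAR1302 and 63.9 CPM in vehicle, 5.47 times lower. Its CD8 gate level was 4.69 CPM (229 UMIs) in mSTAR1302 and 25.5 CPM (737 UMIs) in vehicle, 5.43 times lower. Without the Foxp3 cells the CD8 gate stood at 2.41 CPM in mSTAR1302 and 6.07 CPM in vehicle, 2.52 times lower, and the log2 difference moved to -1.05 in place of -2.22. The vehicle CD8 cells with Foxp3 stood at 107 CPM, 17.6 times those without (14.7 to 21.3). Near-empty droplets stood at 11.9 CPM in mSTAR1302 and 103 CPM in vehicle, above the CD8 gate in both libraries.

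At 3000 UMIs, 28.4% of cells of the CD4 gate with Foxp3 in mSTAR1302 and 36.9% in vehicle held a Rln3 UMI. Of CD8 cells, 0.963% in mSTAR1302 and 4.57% in vehicle did, against 0 of 23 macrophage-marker cells in mSTAR1302 and 1 of 65 (1.54%) in vehicle. At least 10 Rln3 UMIs were held by 1 CD4 cell with Foxp3 in mSTAR1302 and by 142 (10.4%) in vehicle. Rln3 lies 340 bases upstream of Il27ra on the same strand, and Il27ra stood at 47.8 CPM in mSTAR1302 and 58.3 CPM in vehicle in the CD8 gate. Of the relaxin family and its receptors, 9 genes in all, Rln3 alone passed the floor in each gate.

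Tff1 was rare, and no macrophage-marker cell held it. The CD8 gate held 33 UMIs (0.676 CPM) in mSTAR1302 and 90 UMIs (3.11 CPM) in vehicle, 4.60 times lower. The CD4 gate without Foxp3 held 8 UMIs (1.53 CPM) in mSTAR1302 and 23 UMIs (5.32 CPM) in vehicle, 3.48 times lower. The CD4 gate with Foxp3 held 2 UMIs (1.60 CPM) in mSTAR1302 and 307 UMIs (21.3 CPM) in vehicle, a ratio of 13.3 times lower with an interval of 3.64 to 110. With 2 UMIs in mSTAR1302, the size of that difference is poorly set. Among CD8 cells without Foxp3 Tff1 stood at 0.640 CPM in mSTAR1302 and 1.54 CPM in vehicle, 2.40 times lower. Near-empty droplets held 1 Tff1 UMI in mSTAR1302 and stood at 12.5 CPM in vehicle, above the vehicle CD8 gate. Tff1 overlaps an antisense gene, Gm15318, by 1660 bases, and Penk overlaps A830012C17Rik by 499 bases. No source used here gives the strand used in counting, and both antisense genes stood under 1 CPM in every gate.

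On GRCm38, the assembly of mm10, with GENCODE M21, the genes lie apart on 6 chromosomes. Penk (ENSMUSG00000045573) is at chromosome 4, 4133531 to 4138819, minus strand, and Pcsk1 (ENSMUSG00000021587) at chromosome 13, 75089826 to 75134861, plus strand. Areg (ENSMUSG00000029378) is at chromosome 5, 91139599 to 91148432, and Il1rl1 (ENSMUSG00000026069) at chromosome 1, 40429570 to 40465415, both on the plus strand. Rln3 (ENSMUSG00000045232) is at chromosome 8, 84042929 to 84045000, and Tff1 (ENSMUSG00000024032) at chromosome 17, 31161395 to 31165277, both on the minus strand. The counts are gene totals, so no exon or intron can be named for them.

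The share of cells that held several of the genes was highest in the CD4 gate with Foxp3 in both libraries. At 3000 UMIs, at least 1 of the 6 was held by 61.9% of that gate's cells in mSTAR1302 and 77.6% in vehicle, and at least 2 by 26.9% in mSTAR1302 and 44.1% in vehicle. The CD8 gate, with many more cells in mSTAR1302, held at least 2 in 0.980% of its cells there. Of CD8 cells at least 1 was held by 8.13% in mSTAR1302 and 31.9% in vehicle, and of CD4 cells without Foxp3 by 16.4% in mSTAR1302 and 35.0% in vehicle.

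**Figure D5:**
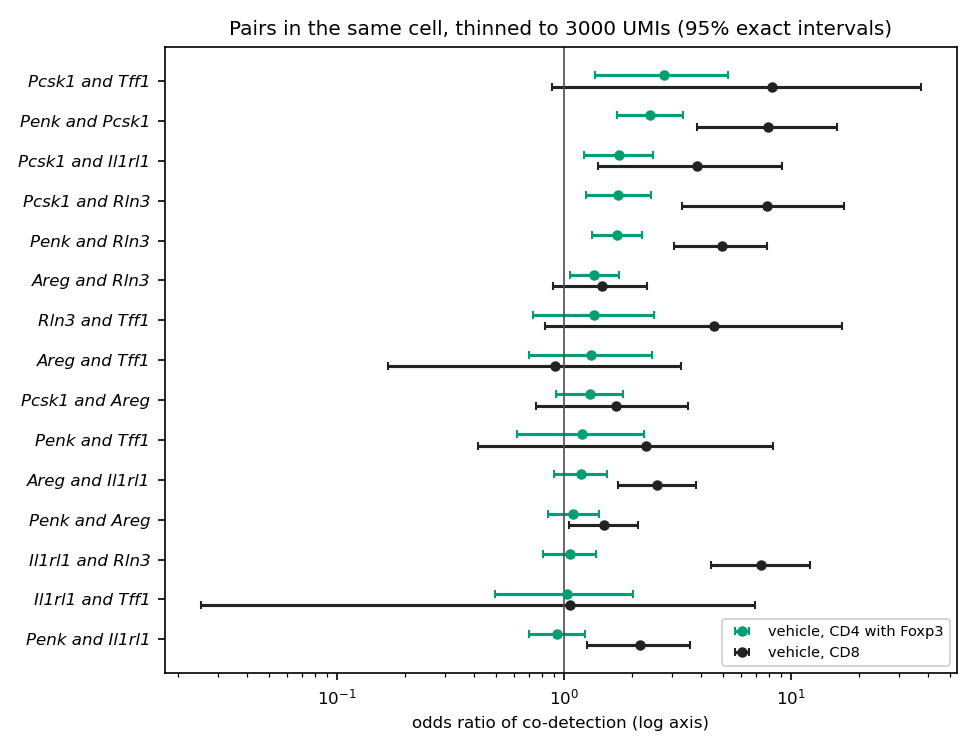
Odds ratio (log axis) that a vehicle cell holding 1 gene also holds the other, for pairs of the 6 genes at 3000 UMIs per cell. The CD8 gate and the CD4 gate with Foxp3 are shown, with 95% exact intervals. In the CD4 gate with Foxp3, Penk with Pcsk1 stood at 2.39 and Penk with Il1rl1 at 0.935.

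Among the pairs, the highest odds ratios in the vehicle CD4 gate with Foxp3 were Pcsk1 with Tff1 at 2.75 (1.36 to 5.30) and Penk with Pcsk1 at 2.39. Pcsk1 also went with Il1rl1 (1.74, 1.22 to 2.46) and with Rln3 (1.73, 1.25 to 2.41), and Penk with Rln3 (1.71, 1.33 to 2.20). Penk with Il1rl1 had an odds ratio of 0.935 there, and its interval of 0.701 to 1.24 holds 1. The interval of Penk with Areg (1.10, 0.848 to 1.42) and that of Areg with Il1rl1 (1.18, 0.903 to 1.55) hold 1 as well.

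Several of these pairs had higher odds ratios in the vehicle CD8 gate, and some moved when the Foxp3 cells were left out. Il1rl1 with Rln3 stood at 7.39 over the whole gate and at 3.20 (0.805 to 9.29) without the Foxp3 cells, and Penk with Rln3 at 4.94 over the whole gate and at 1.42 (0.363 to 4.02) without them. At 3000 UMIs, Rln3 was held by 16.5% of the 381 vehicle CD8 cells with Foxp3 and 2.25% of the 1959 without, and Il1rl1 by 17.8% of those with and 3.16% of those without. Penk was held by 18.6% of those with and 6.64% of those without, and Areg by 24.9% of those with and 17.9% of those without. Areg with Il1rl1 moved little, at 2.58 (1.73 to 3.80) over the whole gate and 2.63 (1.47 to 4.60) without the Foxp3 cells.

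Klrg1, a receptor of highly activated regulatory T cells, split the vehicle CD4 gate with Foxp3 at 3000 UMIs into 589 cells with and 700 cells without a Klrg1 UMI. Penk stood at 855 CPM in the cells with Klrg1 and 579 CPM in those without, 1.48 times higher. Pcsk1 stood at 108 CPM with Klrg1 and 63.3 CPM without, 1.71 times higher, Areg at 674 CPM with and 474 CPM without, 1.42 times higher, and Rln3 at 352 CPM with and 265 CPM without, 1.33 times higher. Il1rl1 stood at 148 CPM with Klrg1 and 156 CPM without, a ratio of 0.946 (0.801 to 1.12). In mSTAR1302, over 28 cells with and 106 without Klrg1, Il1rl1 stood at 202 CPM with and 126 CPM without, 1.61 times higher (0.855 to 2.90), and both intervals hold 1. The mSTAR1302 ratios of Penk (1.23, 0.857 to 1.75), Pcsk1 (1.26, 0.024 to 15.7) and Areg (1.40, 0.894 to 2.13) had intervals that hold 1. Rln3 was 2.27 times higher with Klrg1 there (1.39 to 3.64). Tff1 had a vehicle ratio of 1.31 (0.768 to 2.25), and in mSTAR1302 it held 0 UMIs with Klrg1 and 1 without. Klrg1 itself was lower in mSTAR1302 in this gate, at 126 CPM in mSTAR1302 and 304 CPM in vehicle.

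Of 17 genes described in regulatory T cells of tissues, 16 passed 20 CPM in the CD4 gate with Foxp3, and 2 of them, Klrg1 and Fgl2, were at least 2-fold lower in mSTAR1302. Fgl2, a secreted immune regulator, stood at 41.7 CPM in mSTAR1302 and 96.8 CPM in vehicle. Foxp3 itself stood at 350 CPM in mSTAR1302 and 405 CPM in vehicle, and Ikzf2, which encodes Helios, at 1118 CPM in mSTAR1302 and 1522 CPM in vehicle. The median log2 difference of the 16 was -0.42, against -0.13 over all genes of the gate. Of the 17, 13 passed the floor in the CD8 gate, of which 5 were at least 2-fold lower (Foxp3, Klrg1, Itgae, Ikzf2 and Cd81) and 1, Fgl2, was higher, at 137 CPM in mSTAR1302 and 65.0 CPM in vehicle. The CD4 gate without Foxp3 had 13 past the floor, 5 of them at least 2-fold lower (Klrg1, Il10, Itgae, Ikzf2 and Cd81). Klrg1 stood at 5.93 CPM in mSTAR1302 and 96.8 CPM in vehicle there, and Ikzf2 at 84.0 CPM in mSTAR1302 and 572 CPM in vehicle. Their part in the differences of the 6 genes in that gate was not tested. Fgl2 stood lower in mSTAR1302 in the CD4 gate with Foxp3 and higher in the CD8 gate.

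Of 22 genes that respond to cyclic AMP or AP-1, 20 passed the floor in the CD8 gate and 2 were at least 2-fold lower, Atf3 and Nr4a2, both encoding transcription factors. Atf3 stood at 118 CPM in mSTAR1302 and 251 CPM in vehicle, and Nr4a2 at 132 CPM in mSTAR1302 and 352 CPM in vehicle. Among CD4 cells without Foxp3 it was 4 of 19 (Fosl2, Jun, Rgs2 and Cxcr4), and among those with Foxp3 1 of 19, Nr4a1, at 135 CPM in mSTAR1302 and 331 CPM in vehicle. Crem, a cyclic AMP responsive repressor, stood at 144 CPM in mSTAR1302 and 125 CPM in vehicle in the CD8 gate. No gene of that list was 2-fold higher in any gate.

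The genes whose presence by cell was most like that of Penk were ranked in the vehicle CD4 gate with Foxp3, by the CPM in its 388 Penk-positive cells over that in its 901 Penk-negative cells at 3000 UMIs. The first 4 were Il13, Lgals7, Cyp11a1 and Pcsk1. Il13, a type 2 cytokine, stood at 24.9 CPM in Penk-positive cells and 3.70 CPM in Penk-negative cells, on 29 and 10 UMIs. Cyp11a1, the first enzyme of steroid synthesis, stood at 23.2 CPM in Penk-positive cells and 7.40 CPM in Penk-negative cells, and also ranked first for Pcsk1, at 47.6 CPM in Pcsk1-positive and 6.32 CPM in Pcsk1-negative cells. Tff1 and Penk were among the first 10 for Pcsk1, as Pcsk1 was for Penk. These rankings rest on few UMIs and come from the cells that defined them.

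For Areg the ranking was made in the vehicle CD8 gate, with 445 Areg-positive and 1895 Areg-negative cells. Gzmd, a granzyme, came first at 451 CPM in Areg-positive and 178 CPM in Areg-negative cells, and Il1rl1 followed at 56.9 CPM in Areg-positive and 22.2 CPM in Areg-negative cells. Gzme was also among the first 10, and so were Foxp3 and Tnfrsf4, which encodes the costimulatory receptor OX40. For Il1rl1, ranked in the vehicle CD4 gate with Foxp3 (327 positive and 962 negative cells), Gpr83 and Ccl1 came first. Cd83, Nrp1 and Il18rap were among its first 10, and none of the other 5 genes was.

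T cells outside the 3 gates carried the genes as well. Cells with both Cd4 and Cd8 UMIs, 843 in mSTAR1302 and 1302 in vehicle, held Penk at 132 CPM in mSTAR1302 and 520 CPM in vehicle, and Rln3 at 39.5 CPM in mSTAR1302 and 184 CPM in vehicle. Cells with neither, 648 in mSTAR1302 and 980 in vehicle, held Areg at 210 CPM in mSTAR1302 and 287 CPM in vehicle, and Il1rl1 at 113 CPM in mSTAR1302 and 156 CPM in vehicle. Penk stood at 75.4 CPM in mSTAR1302 and 325 CPM in vehicle in the cells with neither. The direction was that of the gates, with all 6 genes lower in mSTAR1302 in both classes. Cells with both Cd4 and Cd8 UMIs can be doublets, and no doublet caller was used.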

How the data were processed

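The deposited matrices are UMI counts, made by the authors with Cell Ranger, of every barcode, without normalization. Version 4 stands in them per the file headers and 6.0.1 in the submitters' processing notes, which also name mm10, FastQC, MultiQC 1.9 and Seurat. The totals were 96486469 UMIs over 1728776 barcodes in mSTAR1302 and 110026997 UMIs over 1910622 barcodes in vehicle, and kept cells held 69448080 and 83854956 of them.

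UMIs were summed per gate and library and given as CPM, UMIs per 1000000 UMIs of the gate, with 95% exact Poisson, conditional binomial or Clopper-Pearson intervals. Log2 differences used a pseudocount of 1 CPM. The zero limit is 3 UMIs or cells. Cells were thinned to 3000 UMIs with a fixed seed, leaving out shallower ones. Near-empty droplets had 20 to 200 UMIs, and macrophage-marker cells had no Cd3 UMI and at least 3 UMIs of macrophage markers. The share of genes past 2-fold was taken over genes that reached 20 CPM in one library or the other. No doublet caller was used.

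The members and gene lists were chosen with earlier results of these data known, and the promoter motifs were chosen after seeing the data. Named genes were the 6 members, up to 4 genes of a list by size of difference, and the 10 genes most like a member by cell. That ranking used at least 20 CPM, a pseudocount of 5 CPM and at least 50 positive cells. The list of tissue regulatory T cell genes went past the limit of 4. All its genes past 2-fold were named in the CD8 gate and the CD4 gate without Foxp3. Ogfr, Oprd1, Oprm1, Furin, Cpe, Adam17, Adam10, Hbegf, Egfr, Il1rap, Il18r1, Il27ra and Crem were named after their values were seen. So were Anpep, Mme and Ace and, in the CD4 gate with Foxp3, Foxp3 and Ikzf2. Gene identifiers matched GENCODE M21 for 32158 of 32285. The code was tested on simulated counts. The tools were SciPy 1.17.1 and NumPy 2.4.6 under Python 3.11.15, with matplotlib 3.10.9 for plots and pandas 2.3.3 for tables.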

Additional observations from a re-analysis of the deposited data

Results flagged for a closer look

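Il1rl1 was counted in cells outside the T cell rule, which no comparison above uses, 1.6 times higher in mSTAR1302 than in vehicle (1.26 to 2.03). It stood at 50.6 CPM (96 UMIs) in mSTAR1302 and 31.6 CPM (265 UMIs) in vehicle, the opposite direction to the CD8 gate. Of the cells with an Il1rl1 UMI, 8 of 29 in mSTAR1302 and 11 of 83 in vehicle held at least 3 UMIs of epithelial markers. These carried 54 of the 96 UMIs in mSTAR1302 and 158 of the 265 in vehicle. The numbers of cells and UMIs were the same for at least 3 UMIs of fibroblast markers. Cells that held both marker sets were not counted. With 1 library per group, the difference was not tested.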

How the results depend on the processing

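No paired analysis was possible because each group had 1 library and no test was made, and leaving out a replicate was impossible for the same reason. Over 18 gene and gate values, 186 alternative log2 differences were computed. Of these, 129 moved by less than their counting interval, 57 moved by more, 0 called values changed direction, and 184 kept their sign. The exceptions were of Il1rl1 in the CD4 gate with Foxp3, which ranged from -0.39 to 0.15. The Penk difference in the CD8 gate (-2.53) was -3.04 after thinning, -2.40 with a lineage minimum of 2 UMIs, -2.14 without Foxp3 cells, -2.75 without cells above 20000 UMIs, -2.90 with cells weighted equally, -2.39 with median-ratio scaling and -2.28 with a pseudocount of 5. The Areg difference (-2.23) was -2.54 after thinning, -2.34 with a mitochondrial limit of 5%, -2.32 with the lineage minimum, -2.46 without cells above 20000 UMIs, -2.47 with cells weighted equally, -2.09 with median-ratio scaling and -2.15 with the pseudocount of 5. The cause was not tested. Without cells holding at least 3 UMIs of macrophage markers, a setting added after seeing the data, Il1rl1 in the CD8 gate stood at -0.98 in place of -1.26. That lies outside its counting interval. The other genes of that gate, Penk at -2.63 and Areg at -2.25 among them, stayed within theirs. With 1.5-fold in place of 2-fold, 5 genes in place of 3 were lower in the CD4 gate with Foxp3. Of all genes that reached 20 CPM in that gate, 8.78% were at least 1.5-fold lower, against 1.95% at 2-fold. The 2-fold count of members there was 2 after thinning, with cells weighted equally and with median-ratio scaling. Rln3 stood at -0.61, -0.86 and -0.93 in those settings. The count was 4 with the lineage minimum or without cells above 20000 UMIs. The Penk and Pcsk1 odds ratio of 7.94 was 2.39 in the CD4 gate with Foxp3, added after seeing the data, 4.16 without thinning, 10.3 at 1000 UMIs and 9.66 with another seed. With a floor of 5 CPM in place of 20, the share of genes 2-fold lower was 7.86% in the CD8 gate, 10.9% in the CD4 gate without Foxp3 and 6.08% in the CD4 gate with Foxp3. Depth limits Pcsk1 and Tff1 most, with 6 and 33 CD8 UMIs in mSTAR1302.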
